A study of Mus musculus with 20 samples.

Results

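The small leucine-rich proteoglycans are secreted matrix proteins with a core of leucine-rich repeats, and 8 of their genes were followed here in cultured cancer-associated fibroblasts (CAFs): Dcn, Bgn and Aspn, Lum, Fmod, Prelp and Omd, and Ogn. The members were chosen by gene symbol among the 32285 genes of the deposited table, and each symbol stood for 1 row. Of the 8 members, 4 passed the filter of at least 1 TPM (a transcript abundance scaled by transcript length and library total) in at least 5 libraries, Bgn, Dcn, Ogn and Fmod, and were tested among 12350 genes. Lum, Prelp, Omd and Aspn stayed below 1 TPM in every library and are given as levels. The cells were CAFs (fibroblasts taken from tumour tissue) of mouse, primary and then immortalised, sequenced as polyA RNA in 20 libraries, 5 in each of 4 groups. In the first group the medium held 0.2 mM glutamine and 25 uM EIPA, an amiloride analogue used to block macropinocytosis, and in the second 0.2 mM glutamine and the DMSO vehicle. In the third it held 4 mM glutamine, DMSO and IL-1a at 25 pg/mL, an inflammatory cytokine, and in the fourth 4 mM glutamine and DMSO alone. All were treated for 32 h. The titles name DMSO in every group except that with EIPA. The treatment protocol gives the EIPA dose in mM where the titles give uM, and the titles are followed here. The labels do not say how many mice or lines the cells came from, nor whether replicates were separate cultures, so each p-value rests on the spread between these libraries alone, which may be technical.

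Proteins of this family bind fibrillar collagens and set the width and spacing of the fibrils, and several also hold growth factors such as TGF-beta in the matrix. Decorin (Dcn) and biglycan (Bgn) carry chondroitin or dermatan sulphate chains, while lumican (Lum), fibromodulin (Fmod) and osteoadherin (Omd) can carry keratan sulphate. In connective tissue they are made mainly by fibroblasts and related mesenchymal cells, and decorin and lumican are widely used as fibroblast markers.

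The genes lie in clusters. In mm10 (GENCODE M21 positions, counted from 1), Dcn runs from 97479609 to 97518143 and Lum from 97565128 to 97572703 on the plus strand of chromosome 10, with 46984 bases between them. Aspn (49544443 to 49567565), Omd (49582462 to 49592822) and Ogn (49608046 to 49624501) follow each other on the plus strand of chromosome 13, with 14896 bases between Aspn and Omd and 15223 between Omd and Ogn. Prelp (minus strand, 133910304 to 133921414) and Fmod (plus strand, 134037254 to 134048277) lie on chromosome 1, 115839 bases apart. Bgn stands alone among the members on the plus strand of chromosome X, from 73483602 to 73495933. Aspn, Omd and Ogn lie inside Cenpp, a kinetochore gene on the opposite strand that was at 9.49 to 18.3 TPM, and whether the counting used strand is not given in the sources used here. Ogn and Omd share 0 exonic bases with Cenpp and Aspn shares 7. Prelp shares 350 exonic bases with the antisense gene Gm15851, which was listed at 0 in every library.

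The promoters of Bgn and Ogn are shown because both genes fell with EIPA and at low glutamine. Each sequence holds 250 bases before to 50 after the RefSeq start (GRCm38.p6), at chrX:73483351-73483650 and chr13:49607765-49608064, both on the plus strand. Capitals mark matches on either strand to 4 motifs, AP-1 (TGANTCA), TEAD (GGAATG), RUNX (TGTGGT) and the TATA box (TATAAA).
Bgn: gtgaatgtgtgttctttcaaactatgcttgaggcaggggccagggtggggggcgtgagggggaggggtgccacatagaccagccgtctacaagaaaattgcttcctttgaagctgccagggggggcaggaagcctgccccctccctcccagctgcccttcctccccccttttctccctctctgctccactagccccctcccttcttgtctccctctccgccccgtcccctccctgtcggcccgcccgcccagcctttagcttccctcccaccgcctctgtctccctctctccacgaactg
Ogn: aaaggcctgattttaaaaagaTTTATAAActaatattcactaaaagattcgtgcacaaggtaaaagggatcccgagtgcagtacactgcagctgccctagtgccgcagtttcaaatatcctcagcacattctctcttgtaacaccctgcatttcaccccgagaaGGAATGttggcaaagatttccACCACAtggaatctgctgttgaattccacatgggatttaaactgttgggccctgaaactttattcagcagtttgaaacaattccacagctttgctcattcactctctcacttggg
The Ogn window held 1 TEAD match at -86 to -81, 1 RUNX match at -65 to -60 on the other strand, and a pair of overlapping TATA matches, TTTATA and TATAAA, from -229 to -222. The Bgn window held no match to these letters, nor did those of Fmod, Prelp and Omd, while the Aspn window held 2 TATA matches. Of 32851 promoters of the same length, 7.81% held the AP-1 letters, 14.7% those of TEAD, 16.8% those of RUNX and 13.6% those of the TATA box. The Bgn window was 63.7% G and C and the Ogn window 42.3%, against a median of 52.7% over all promoters. Promoters of 6 of the 8 members were in the RefSeq table.

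Bgn was the highest member in every library. It was at 375, 263, 289, 465 and 347 TPM with EIPA, against 702, 535, 538, 636 and 514 TPM with vehicle at 0.2 mM glutamine. With 4 mM glutamine it was at 1274, 1164, 1148, 1110 and 970 TPM with IL-1a, against 1403, 1365, 1350, 1225 and 1039 TPM with vehicle. By mean level it stood 395th with EIPA and 215th with vehicle at 0.2 mM, and 124th with IL-1a and 109th with vehicle at 4 mM, among all 32285 genes. Since TPM is scaled by length, levels of different genes can be compared.

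Dcn was the next highest member, and its replicates differed most at 4 mM glutamine. It was at 30.1, 20.2, 23.8, 37.2 and 23.2 TPM with EIPA, against 53.3, 34.3, 44.3, 66.4 and 58.9 TPM with vehicle at 0.2 mM glutamine. At 4 mM it was at 380, 121, 120, 256 and 371 TPM with IL-1a, against 141, 123, 202, 263 and 398 TPM with vehicle. The highest library exceeded the lowest of its group 3.17-fold with IL-1a and 3.23-fold with vehicle at 4 mM, where Bgn varied 1.31-fold and 1.35-fold.

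Ogn encodes osteoglycin (mimecan), a member first found in bone. It was at 1.02, 0.74, 1.12, 2.01 and 1.76 TPM with EIPA, against 6.89, 5.15, 6.42, 9.56 and 8.88 TPM with vehicle at 0.2 mM. At 4 mM it was at 22.2, 17.3, 9.08, 18.7 and 23.8 TPM with IL-1a, against 19.8, 22.9, 22.9, 27.0 and 28.7 TPM with vehicle. Every EIPA library was below every other library of the series.

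Fmod, which binds collagen fibrils as lumican does, was low throughout. It was listed at 0 in 4 EIPA libraries and at 0.03 TPM in replicate 5, against 0.07, 0.16, 0.11, 0.09 and 0.05 TPM with vehicle at 0.2 mM. At 4 mM it was at 1.27, 0.85, 0.70, 1.52 and 2.88 TPM with IL-1a, against 1.35, 1.75, 1.98, 2.27 and 3.46 TPM with vehicle. It passed the filter through the 4 mM libraries only, so a difference between the glutamine levels follows in part from that choice.

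**Figure D1:**
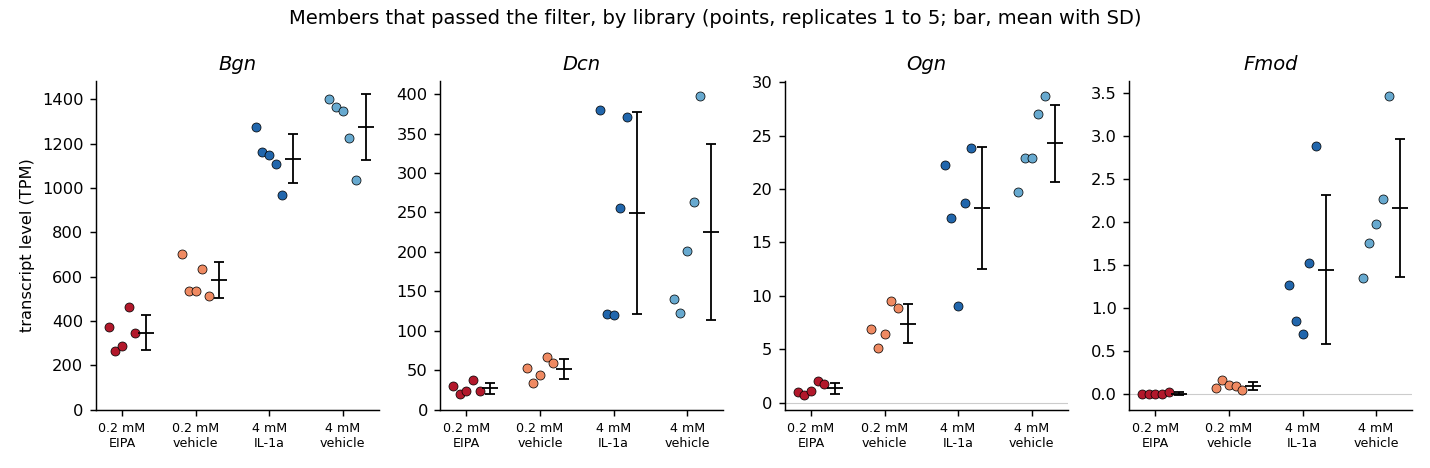
Levels in TPM (linear axes that include 0) of Bgn, Dcn, Ogn and Fmod in each library of the 4 groups, with the mean and SD of 5 libraries beside the points. Bgn averaged 348 TPM with EIPA and 585 with vehicle at 0.2 mM, and 1133 with IL-1a and 1276 in the 4 mM vehicle group, and the Dcn points lie widest apart in the 4 mM groups.

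The remaining 4 members were near the limit of what the table shows. Lum was listed at 0 in 4 of 5 libraries with EIPA and in 4 of 5 with vehicle at 0.2 mM, at 0 to 0.42 TPM with IL-1a and at 0.03 to 0.41 TPM with vehicle at 4 mM. Prelp, which anchors basement membranes to collagen, averaged 0.064 TPM with EIPA and 0.036 with vehicle at 0.2 mM, and 0.31 with IL-1a and 0.284 in the 4 mM vehicle group. Omd, known from bone, averaged 0.01 TPM with EIPA and 0.028 with vehicle at 0.2 mM, and 0.308 with IL-1a and 0.308 in the 4 mM vehicle group. Lum, Prelp and Omd thus had their 2 highest group means at 4 mM. Aspn, asporin, which binds collagen and TGF-beta, averaged 0.02 TPM with EIPA, 0.036 with vehicle at 0.2 mM, 0.03 with IL-1a and 0.018 in the 4 mM vehicle group, with no group above 0.12 TPM in any library. The depth behind the TPM values is unknown, so levels of this size could rest on few reads. When all 20887 genes above 0 anywhere were fitted, Prelp (log2 fold change -0.30, limma adjusted p = 6.6e-04), Omd (-0.33, limma adjusted p = 9.4e-04) and Lum (-0.20, limma adjusted p = 0.040) were called lower at 0.2 mM than at 4 mM glutamine in vehicle, and Aspn was not (limma adjusted p = 0.49). The share of all genes called lower in that fit is not given here.

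**Figure D2:**
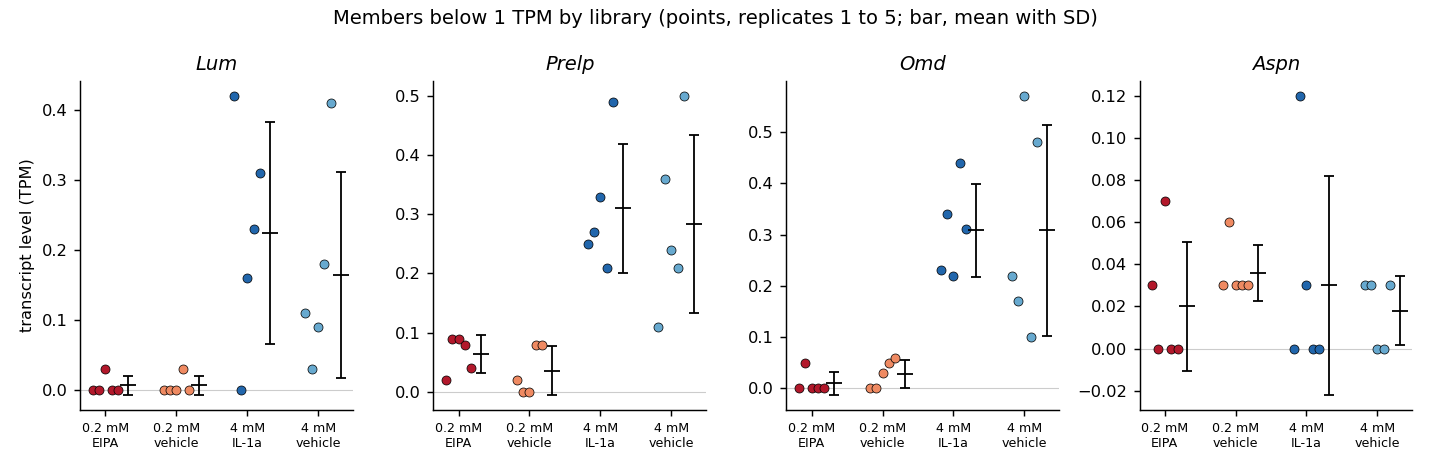
Levels in TPM (linear axes, a different range in each panel) of Lum, Prelp, Omd and Aspn in each library of the 4 groups, with mean and SD of 5 libraries. No value reaches 0.6 TPM, and Lum, Prelp and Omd have their highest points in the 4 mM groups.

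Neighbours on a chromosome could differ widely in level. Dcn averaged 225 TPM and Lum, the next member on chromosome 10, 0.164 TPM with vehicle at 4 mM. Beyond Lum, Kera (keratocan of the cornea) was listed at 0 in all 20 libraries and Epyc (epiphycan of cartilage) was listed at 0 in both 0.2 mM groups and averaged 0.456 TPM with IL-1a and 0.412 in the 4 mM vehicle group. On chromosome 13, Ogn averaged 24.3 TPM and Omd 0.308 with vehicle at 4 mM. Of the 10 other genes of this and related leucine-rich families, 3 passed the filter, Tsku, Podnl1 and Chadl, and with vehicle at 4 mM they averaged 15.6, 3.052 and 1.56 TPM.

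The summed level of the 8 members was 376 ± 85.9 TPM (SD, n = 5) with EIPA and 644 ± 87.1 TPM (n = 5) with vehicle at 0.2 mM. It was 1403 ± 160 TPM with IL-1a and 1529 ± 43.3 TPM in the 4 mM vehicle group (SD, n = 5 each). The sum never passed 0.168% of all TPM in a library. Bgn made up 92.5% of the sum with EIPA and 90.8% with vehicle at 0.2 mM, and 81.2% with IL-1a and 83.4% in the 4 mM vehicle group. Dcn made up 7.14% with EIPA and 7.99% with vehicle at 0.2 mM, and 17.4% with IL-1a and 14.9% in the 4 mM vehicle group. At 4 mM the Dcn share ran from 9.29% to 27.1% with IL-1a and from 8.14% to 27.1% with vehicle, so the larger share at 4 mM was not seen in every library, and at 0.2 mM it ran from 6.24% to 7.56% with EIPA and from 5.98% to 10.1% with vehicle.

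**Figure D3:**
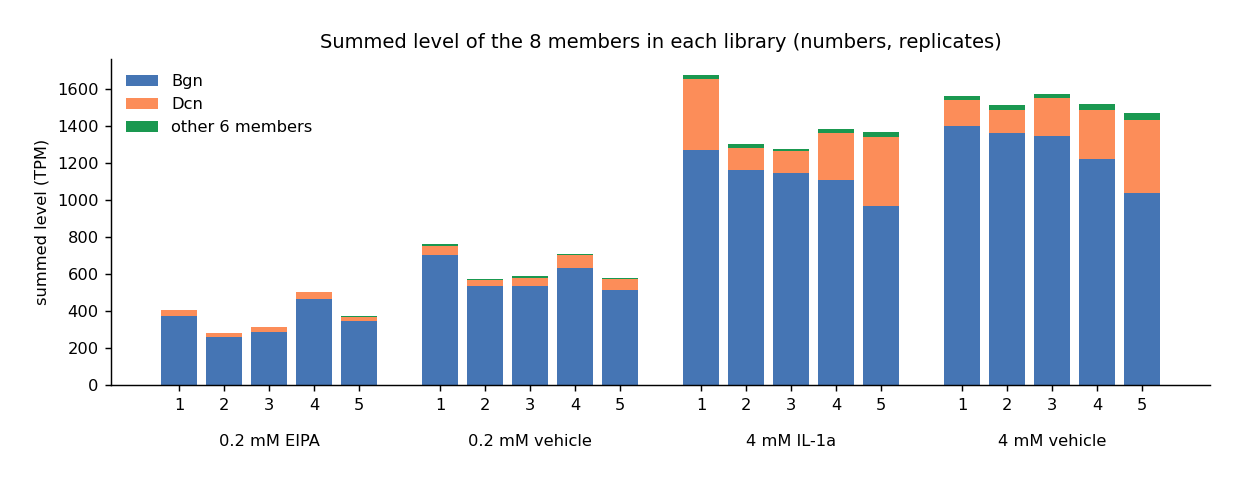
Summed level in TPM of the 8 members in each library (bars from 0), divided into Bgn, Dcn and the other 6 members, with replicates numbered within the 4 groups. The EIPA bars lie between 284 and 504 TPM and the vehicle bars at 4 mM between 1470 and 1577 TPM, where the Dcn part differs most between libraries.

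The first comparison set EIPA against vehicle, both at 0.2 mM glutamine, and addresses the effect of EIPA in glutamine-poor medium. These RNA levels hold no measure of macropinocytosis. Of the 4 tested members, 3 were called lower with EIPA, Ogn, Bgn and Dcn, and none higher, where 21.1% of the 12350 genes were called lower and 27.4% higher. Ogn averaged 1.33 ± 0.533 TPM with EIPA and 7.38 ± 1.81 TPM with vehicle (SD, n = 5 each), a log2 fold change of -1.85 ± 0.20 (SE, on log2 of TPM + 1; limma adjusted p = 3.3e-07). Its mean in vehicle was 5.55 times that with EIPA, and its fold change ranked 23rd of all tested genes from the most negative. Bgn averaged 348 ± 79.0 TPM with EIPA and 585 ± 80.7 TPM with vehicle, a log2 fold change of -0.77 ± 0.12 (limma adjusted p = 3.8e-05). For Ogn and Bgn the groups did not overlap. Among all genes 14.7% lay lower with EIPA without overlap.

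Dcn averaged 26.9 ± 6.81 TPM with EIPA and 51.5 ± 12.5 TPM with vehicle at 0.2 mM (SD, n = 5 each), a log2 fold change of -0.91 ± 0.33 (limma adjusted p = 0.028). The groups overlapped, since EIPA replicate 4 (37.2 TPM) was above vehicle replicate 2 (34.3 TPM). This call was lost without any of 5 libraries, EIPA replicates 2, 3 and 5 and vehicle replicates 4 and 5 (limma adjusted p = 0.0526 to 0.067), and when no filter was used (0.062). The spread in the model includes the wide 4 mM groups, and with only the groups of the comparison fitted the limma adjusted p was 0.0013. Fmod averaged 0.006 TPM with EIPA and 0.096 TPM with vehicle, without overlap, and differed by -0.12 ± 0.18 (log2; limma adjusted p = 0.59). With 0.1 in place of 1 TPM added before the logarithm, Fmod differed by -0.87 (limma adjusted p = 0.032).

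The second comparison set IL-1a against vehicle, both at 4 mM glutamine, and addresses the effect of the cytokine in glutamine-rich medium. None of the 4 tested members was called by limma, where 0.283% of all genes were, and 2 had an unadjusted p under 0.05. Ogn averaged 18.2 ± 5.74 TPM with IL-1a and 24.3 ± 3.58 TPM with vehicle (SD, n = 5 each), a log2 difference of -0.45 with a 95% interval from -0.87 to -0.02 (limma adjusted p = 0.78). Fmod averaged 1.44 ± 0.867 TPM with IL-1a and 2.16 ± 0.80 TPM with vehicle, a difference of -0.40 with an interval from -0.77 to -0.03 (limma adjusted p = 0.74). The spread in the model includes the 0.2 mM groups, where Fmod was near 0. With only the 2 groups of this comparison fitted, the SE of Fmod was 0.23, against 0.18 in the full model. Its interval and its unadjusted p under 0.05 rest on the smaller SE. Bgn averaged 1133 ± 110 TPM with IL-1a and 1276 ± 149 TPM with vehicle, a difference of -0.17 with an interval from -0.43 to 0.09 (limma adjusted p = 0.999). Dcn averaged 250 ± 128 TPM with IL-1a and 225 ± 111 TPM with vehicle, a difference of 0.10 with an interval from -0.58 to 0.79 (limma adjusted p = 0.999). The Dcn interval is wide on both sides of 0 and is not a limit of detection, and the Dcn groups overlapped over most of their range. With only these 2 groups fitted, the SE of the Dcn difference was 0.40, against 0.33 in the full model.

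The vehicle groups differ in glutamine alone, 0.2 mM against 4 mM. Bgn, Dcn and Ogn, which also pass the filter on the 0.2 mM libraries alone, fell, where 27.9% of all genes were called lower and 45.4% higher. Each of them was lower in every 0.2 mM library than in any 4 mM vehicle library, which held for 22.7% of all genes. Fmod passed only where it is high, so its call is not counted with them. The median of all genes shifted by 0.14 on the log2 scale, and the changes between glutamine levels are given relative to that shift, while each p-value tests the unshifted change against 0. Dcn averaged 51.5 ± 12.5 TPM at 0.2 mM and 225 ± 111 TPM at 4 mM (SD, n = 5 each), a change of -2.15 ± 0.33 relative to the median gene (limma adjusted p = 1.3e-05). Ogn averaged 7.38 ± 1.81 TPM at 0.2 mM and 24.3 ± 3.58 TPM at 4 mM, a relative change of -1.74 ± 0.20 (limma adjusted p = 4.7e-07). Fmod averaged 0.096 ± 0.042 TPM at 0.2 mM and 2.16 ± 0.80 TPM at 4 mM, a relative change of -1.63 ± 0.18. In the fit of all 20887 genes, which has no such filter, Fmod was also lower (-1.495 before the shift, limma adjusted p = 7.4e-07). The mean of Fmod at 4 mM was 22.5 times that at 0.2 mM, which the added 1 TPM compresses on the log2 scale. Bgn averaged 585 ± 80.7 TPM at 0.2 mM and 1276 ± 149 TPM at 4 mM, a relative change of -1.26 ± 0.12 (limma adjusted p = 6.3e-08). The vehicle groups are shared with the other comparisons, so the falls with EIPA and at low glutamine do not count as independent of each other.

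**Figure D4:**
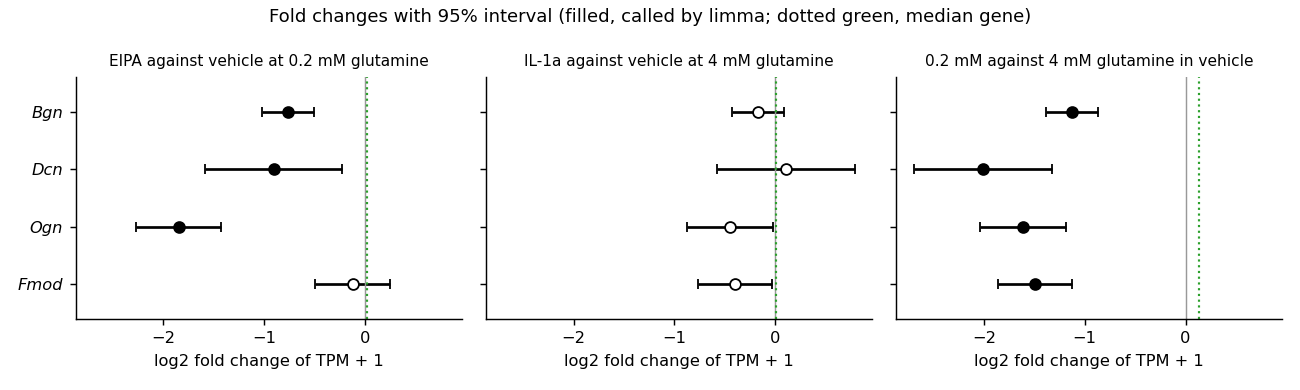
Log2 fold changes of TPM + 1 for Bgn, Dcn, Ogn and Fmod (rows) in the 3 comparisons (panels), with 95% intervals from limma. Filled points were called, the solid line marks 0 and the dotted line the median gene, which stands at 0.14 in the comparison of glutamine levels, where all 4 members lie below -1.

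The EIPA and IL-1a responses, which share no library, were compared in the same model. EIPA was given only at 0.2 mM glutamine and IL-1a only at 4 mM, so agent and glutamine level cannot be told apart here. The response of Ogn was lower with EIPA than with IL-1a by 1.40 (a difference of -1.40 ± 0.29, limma adjusted p = 0.0011), and that of Bgn by 0.60 (-0.60 ± 0.18, limma adjusted p = 0.015), where 12.6% of all genes were called lower. The difference was -1.01 ± 0.46 for Dcn (limma adjusted p = 0.11) and 0.28 ± 0.25 for Fmod (limma adjusted p = 0.43), and the sign for Fmod turned with 0.1 TPM added (-0.22). The Dcn difference passed without IL-1a replicate 2 or 3 or vehicle replicate 5 at 4 mM (limma adjusted p = 0.038 to 0.048).

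Ordered by mean level, Bgn, Ogn and Fmod ran from EIPA through vehicle at 0.2 mM and IL-1a to vehicle at 4 mM, and for Dcn the places of IL-1a and vehicle at 4 mM were exchanged. The step between the 0.2 mM vehicle group and the lower of the 4 mM groups was called for Bgn, Ogn and Dcn, and for Fmod under a filter that it passed through the 4 mM groups, where 28.4% of all genes were called lower with vehicle at 0.2 mM than with IL-1a. The step from EIPA to vehicle at 0.2 mM was called for Bgn, Ogn and Dcn and not for Fmod. The step between IL-1a and vehicle at 4 mM was called for no member. EIPA at 0.2 mM lay below vehicle at 4 mM for Bgn, Ogn and Dcn, where 28% of all genes were called lower, with Ogn at -3.63 ± 0.20 relative to the median gene (limma adjusted p = 3.1e-12). The mean of Ogn with vehicle at 4 mM was 18.2 times that with EIPA, against 8.37 times for Dcn and 3.67 times for Bgn. For Fmod no such ratio is given, since it was listed at 0 in 4 of 5 EIPA libraries, and the added 1 TPM compresses its log2 difference.

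Libraries of the 4 mM groups also differed among themselves. IL-1a replicates 1 and 5 and vehicle replicate 5 had the highest Dcn levels of the series (380, 371 and 398 TPM) and the lowest Ccn1 (201, 235 and 231 TPM), against 379 to 599 TPM of Ccn1 in the other 7 libraries at 4 mM. Ccn1 encodes a matricellular protein of the YAP programme. The same 3 libraries had the highest Lum levels (0.42, 0.31 and 0.41 TPM), where the other 7 reached 0.23 TPM. Bgn did not follow Dcn there, with 1274 TPM in IL-1a replicate 1, the highest of its group, and 970 and 1039 TPM in IL-1a replicate 5 and vehicle replicate 5, the lowest of theirs. The ratio of Dcn to Bgn ran from 0.104 to 0.383 with IL-1a and from 0.0902 to 0.383 with vehicle at 4 mM, while at 0.2 mM it ran from 0.067 to 0.082 with EIPA and from 0.064 to 0.115 with vehicle. Without the 3 libraries, Dcn differed between IL-1a and vehicle by -0.17 ± 0.29 (limma adjusted p = 1), so its direction turned. Since these libraries had the highest Dcn and more of them were from the IL-1a group, that turn follows in part from the choice. Between the glutamine levels Dcn then differed by -1.78 ± 0.25 (limma adjusted p = 4.7e-06, not relative to the median gene). The EIPA comparison holds none of the 3, so its Dcn fold change could not move and stayed at -0.91. Only the spread of the model shrank (SE 0.24, limma adjusted p = 0.0039), which is no check of that call. The calls of Bgn and Ogn between the glutamine levels were kept without the 3 libraries.

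**Figure D5:**
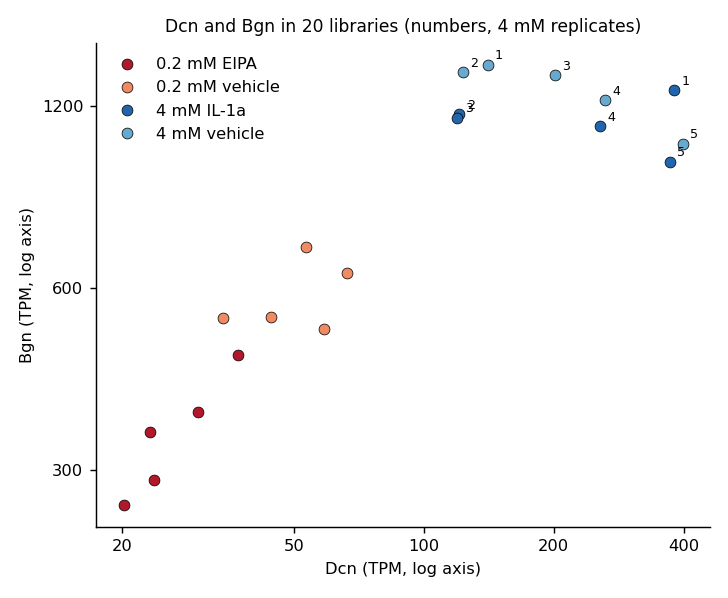
Levels in TPM of Dcn (horizontal) and Bgn (vertical), both on log axes, in the 20 libraries, coloured by group and numbered by replicate at 4 mM. At 0.2 mM the ratio of Dcn to Bgn stays at or below 0.115, and at 4 mM it runs from 0.0902 to 0.383.

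The genes that attach the sulphated chains moved in both directions. Of 16 tested genes of the linker and of chondroitin and dermatan sulphate synthesis (22 listed), with EIPA 9 were called higher, 2 lower and 5 neither (median log2 fold change 0.21, against 0.02 for all genes). For this and the lists that follow, the shares over all genes were 27.4% higher and 21.1% lower with EIPA, and 45.4% higher and 27.9% lower at 0.2 mM against 4 mM glutamine. B4galt7, which adds a galactose of the linker, was at 55.1 ± 2.79 TPM with EIPA and 27.3 ± 2.01 TPM with vehicle (0.99 ± 0.06, limma adjusted p = 1.7e-10), and Ust, which sulphates uronic acid, was at 4.04 and 5.51 TPM (-0.37 ± 0.09, limma adjusted p = 0.0015). At 0.2 mM against 4 mM glutamine 4 of the 16 rose and 11 fell (median -0.30, against 0.14 for all genes), with Csgalnact2, which starts chondroitin chains, at 55.6 and 28.3 TPM (0.81 ± 0.07 relative to the median gene, limma adjusted p = 8.3e-11) and the chondroitin sulphotransferase Chst12 at 19.1 and 81.2 TPM (-2.17 ± 0.07, limma adjusted p = 5.1e-15).

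Of 8 tested genes of keratan sulphate synthesis (11 listed), 1 rose and 1 fell with EIPA (median -0.03; 2 and 3 with array weights), and 2 rose and 6 fell at 0.2 mM against 4 mM (median -0.38), or 1 and 6 under median-of-ratios scaling, quantile normalisation or without the mitochondrially encoded genes. The sialyltransferase St3gal2 rose with EIPA (0.31 ± 0.06) and the galactosyltransferase B4galt4 fell (-0.42 ± 0.11), with limma adjusted p of 4.1e-04 and 0.0051. Between the glutamine levels, relative to the median gene, B3gnt2, which extends lactosamine chains, rose by 0.63 ± 0.06 and St3gal1, a sialyltransferase, fell by 1.99 (limma adjusted p = 1.7e-10 and 6.8e-11). Of the 8 genes that supply the sulphate donor and sugar precursors, all tested, 2 rose and 1 fell with EIPA (median 0.04), and 1 rose and 5 fell between the glutamine levels (median -0.27). With EIPA the sulphate transporter Slc26a2 rose (0.64 ± 0.08, limma adjusted p = 8.0e-07) and Papss2, which makes the donor, fell (-0.63 ± 0.09, limma adjusted p = 6.6e-06), while at 0.2 mM against 4 mM its relative Papss1 stood at 31.3 and 82.2 TPM (-1.49 ± 0.10 relative to the median gene, limma adjusted p = 1.7e-10). The nucleotide sulphate transporter Slc35b3 rose there by 0.32 ± 0.07 (limma adjusted p = 1.0e-05).

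Most collagens that these proteins bind also fell. With EIPA 9 of 10 tested collagens (12 listed) fell and none rose (median -0.999, against 0.02 for all genes), and at 0.2 mM against 4 mM all 10 fell (median -1.97). Col3a1 was at 40.0 ± 4.30 TPM with EIPA and 215 ± 37.7 TPM with vehicle (-2.39 ± 0.18, limma adjusted p = 1.2e-09), and Col6a2, of beaded filaments, at 22.4 ± 2.90 TPM at 0.2 mM and 120 ± 23.9 TPM at 4 mM (-2.50 ± 0.18 relative to the median gene, limma adjusted p = 2.4e-10). Of 9 tested genes for proteases and helpers that cleave core proteins or procollagen (10 listed), 4 rose and 4 fell with EIPA (median -0.10), and 7 fell and none rose between the glutamine levels (median -0.63). Mmp3, a stromelysin, was at 10.8 TPM with EIPA and 1.03 TPM with vehicle (2.51 ± 0.25, limma adjusted p = 6.1e-08), and at 1.03 TPM at 0.2 mM and 17.8 TPM at 4 mM (-3.34 ± 0.25 relative to the median gene, limma adjusted p = 2.6e-10). Tll1, a tolloid-like procollagen protease, was at 3.84 TPM with EIPA and 18.4 TPM with vehicle (-2.01 ± 0.12, limma adjusted p = 2.6e-11).

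Of 16 tested receptors and growth factors that members of the family bind or signal through (18 listed), 5 rose and 5 fell with EIPA (median 0.00), and 4 rose and 9 fell between the glutamine levels (median -0.29). Tgfb2, a TGF-beta ligand, was at 3.29 TPM with EIPA and 20.4 TPM with vehicle (-2.30 ± 0.12, limma adjusted p = 3.8e-12), and Cd14, a co-receptor of the innate response, at 15.7 and 7.14 TPM (1.04 ± 0.15, limma adjusted p = 7.7e-06). Between the glutamine levels Tgfb3 was at 18.8 TPM at 0.2 mM and 90.5 TPM at 4 mM (-2.35 ± 0.11 relative to the median gene, limma adjusted p = 8.1e-13) and Kdr, a VEGF receptor, at 6.93 and 2.86 TPM (0.88 ± 0.13, limma adjusted p = 4.1e-07). Of the 3 tested matrix proteoglycans outside the family (12 listed), versican (Vcan) was at 3.53 TPM with EIPA and 7.17 TPM with vehicle (-0.85 ± 0.10, limma adjusted p = 1.1e-06), and at 7.17 TPM at 0.2 mM and 33.0 TPM at 4 mM (-2.20 ± 0.10 relative to the median gene, limma adjusted p = 4.7e-13). Perlecan (Hspg2) also fell in both comparisons, by 0.49 with EIPA (limma adjusted p = 1.8e-05), and agrin (Agrn) rose with EIPA (0.30 ± 0.11, limma adjusted p = 0.026) except without the mitochondrially encoded genes, where none of the list rose. Of the 3 tested relatives of the leucine-rich families, limma called none with EIPA (1 at an unadjusted p under 0.05), and 2 fell between the glutamine levels, among them Tsku, tsukushi, at 12.5 TPM at 0.2 mM and 15.6 TPM at 4 mM (-0.44 ± 0.11 relative to the median gene, limma adjusted p = 0.023). With IL-1a limma called no gene of these 8 lists, and between 0 and 2 genes of each had an unadjusted p under 0.05. Under median-of-ratios scaling, quantile normalisation or array weights 1 of the other matrix proteoglycans was called higher with IL-1a.

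The genes whose profile over the 20 libraries lay closest to that of each tested member were sought where the mean reached 5 TPM, by the root mean square difference of log2(TPM + 1) after centring each gene on its own mean. For Bgn these were Fstl1, a secreted glycoprotein, at 0.10, Ahcyl1 at 0.18 and Acat1 at 0.19, where Bgn itself varied by 0.79 about its mean. Mean Fstl1 levels were 85.2 TPM (EIPA) and 145 TPM (vehicle) at 0.2 mM, and 299 TPM (IL-1a) and 317 TPM (vehicle) at 4 mM. For Dcn they were Slit3, a guidance factor, at 0.30, Tnc, tenascin C, at 0.31 and Gabra3 at 0.33, against 1.40 for Dcn itself. For Ogn they were Gpm6a at 0.22, Upk3b at 0.27 and Fgf18 at 0.32, against 1.37 for Ogn itself. For Fmod they were Etl4 at 0.19, Mid1ip1 at 0.23 and Fah at 0.24, against 0.74 for Fmod itself.

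Gpm6a and Upk3b are also markers of mesothelium, and most mesothelial markers moved with the members. All 6 of the list passed the filter and none was at 0. With EIPA 4 fell and none rose, and at 0.2 mM against 4 mM glutamine 5 fell and none rose. Their summed level was 186 to 294 TPM with EIPA and 334 to 473 TPM with vehicle at 0.2 mM, and 557 to 981 TPM with IL-1a and 639 to 1091 TPM with vehicle at 4 mM. Gpm6a averaged 10.2 TPM with EIPA, against 37.2 TPM in its vehicle, and Msln averaged 83.9 and 85.4 TPM there. Fibroblast markers moved in both directions with EIPA, where of 8 tested 3 fell (Col1a1, Col1a2 and Vim) and 4 rose (Pdpn, Pdgfra, Pdgfrb and S100a4), and 7 fell and none rose at 0.2 mM against 4 mM glutamine. Their summed level, made up mostly of the 3 that fell with EIPA, was 2168 to 2443 TPM with EIPA and 3297 to 3884 TPM with vehicle at 0.2 mM, and 7407 to 8870 TPM with IL-1a and 8563 to 9152 TPM with vehicle at 4 mM. The ninth marker, Fap, a surface protease of many CAFs, stayed at a mean of 0.051 TPM. In such bulk samples fewer cells of a type and less RNA per cell cannot be told apart, and the part of these markers in the results was not tested.

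Among the other marker lists, the highest summed level in any library was 8.7 TPM for leukocytes (with Ptprc at a mean of 0.0005 TPM and Adgre1 and Cd3e at 0), 19.5 for epithelium, 10.3 for endothelium, 12.6 for mural cells, 31.4 for tenocytes, 16.4 for chondrocytes, 21.1 for osteoblasts and 1.97 for Schwann cells. Some of these sums differed between EIPA and its vehicle without overlap. The leukocyte sum, nearly all Cd68, was 7.25 to 8.7 TPM with EIPA and 1.95 to 2.62 TPM with vehicle. The epithelial sum, mostly Krt18, was 10.1 to 12.1 TPM with EIPA and 4.39 to 6.16 TPM with vehicle. The chondrocyte sum, mostly Sox9, was 13.9 to 16.4 TPM with EIPA and 4.76 to 6.03 TPM with vehicle. In both of these lists 1 of 2 tested markers was called higher with EIPA and the other was not called. The mural sum, mostly Mcam, was lower, at 3.15 to 4.3 TPM with EIPA and 7.15 to 10.2 TPM with vehicle. So was the Schwann sum, at 0.76 to 1.07 TPM with EIPA and 1.16 to 1.97 TPM with vehicle. The tenocyte sum was 8.77 to 11.9 TPM with EIPA and 11.7 to 14.7 TPM with vehicle at 0.2 mM, and 22.3 to 28.1 TPM with IL-1a and 26.8 to 31.4 TPM with vehicle at 4 mM, so its ranges overlapped between EIPA and vehicle and not between the glutamine levels. Of its 2 tested markers Scx averaged 4.52 TPM with EIPA and 7.65 TPM with vehicle at 0.2 mM, and Mkx 5.77 and 5.598 TPM, while Tnmd had a mean of 0.02 TPM over all libraries. The part of these lists in the results was not tested. The libraries held 11749 to 12045 genes at 1 TPM or more, and TPM values keep no record of depth. Mitochondrially encoded genes took 5.18% to 6.78% of TPM with EIPA and 8.55% to 9.24% with vehicle at 0.2 mM, and with them left out Bgn, Dcn and Ogn were still called lower with EIPA.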

How the data were processed

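RNA of 20 libraries was measured as TPM, and RSEM and mm10 are named in the submitters' processing notes, with aligner, versions, annotation and depth not given in the sources used here. Values were deposited as TPM with 2 decimals and summed to between 999999.47 and 1000000.84 per library, so no counting interval could be given.

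The test covered 12350 genes (1 TPM or more in 5 or more libraries) on log2(TPM + 1). It used limma 3.58.1 (R 4.3.3), 1 model of the 4 groups and a variance trend, for all pairs of groups and for the EIPA response minus the IL-1a response. Calls are Benjamini-Hochberg adjusted p-values under 0.05 over all tested genes, and a gene is said to rise or fall only when called. Errors are the SD for levels and the SE for fold changes. The fit was tested on simulated data. The members, the lists and the alternatives were chosen with earlier results of these data known. All members are named, and from each list the called gene that changed most in each direction, if its higher group averaged 5 TPM or more. Msln, Hspg2, the single fibroblast, leukocyte, epithelial, chondrocyte, mural and tenocyte markers, Kera, Epyc, Podnl1, Chadl and Ccn1 were chosen after their values were seen. Positions come from GENCODE M21 and promoters from RefSeq (GRCm38.p6). The alternatives were a pseudocount of 0.1 TPM, other filters, scalings, weights and fits, and left-out libraries. Lists are described by counts and medians and were not tested as sets.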

Additional observations from a re-analysis of the deposited data

Results flagged for a closer look

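Among the 4 tested members in the 4 groups, 1 of 16 groups of libraries had a value far from the others. Fmod with EIPA was at 0.03 TPM in replicate 5 and listed at 0 in the other 4 libraries. With the other 4 libraries at 0, any value above 0 in replicate 5 would have been marked. The usual rate of about 1 in 20 groups marked by chance therefore does not apply here, and the value is near the last decimal of the table.

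The response to EIPA at 0.2 mM glutamine differed from the response to IL-1a at 4 mM glutamine for Ogn (a difference of -1.40 on the log2 scale, limma adjusted p = 0.0011) and for Bgn (-0.60, limma adjusted p = 0.015). Among all genes 12.6% were called lower for this difference. Ogn was lower in 5 of 5 EIPA libraries than in any vehicle library at 0.2 mM, while its IL-1a and vehicle libraries at 4 mM overlapped, and the same held for Bgn. Of all genes 14.7% lay lower with EIPA without overlap, and 0.283% were called with IL-1a.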

How the results depend on the processing

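Over 30 or 31 alternatives each, the falls of Bgn and Ogn with EIPA, those of Bgn, Dcn and Ogn at 0.2 mM against 4 mM glutamine, and the differences between the EIPA and IL-1a responses of Bgn and Ogn kept their direction and their call. Their log2 values ran from -0.90 to -0.67 for Bgn and from -2.43 to -1.75 for Ogn with EIPA. The Dcn fall with EIPA (-1.04 to -0.81) kept its direction, and its call in 25 of 31. Alternatives that only left out libraries outside a comparison could not move its fold change, so these totals overstate how far each call was checked. Of the 20 fits that each left out 1 library, 5 lost the Dcn call, and each of these left out a library of the EIPA comparison. With no filter 7 members in place of 4 (Fmod included) were called lower between the glutamine levels, since Lum, Prelp and Omd were then tested. The share of all 20887 genes called lower in that fit is not given here, so the count is not read as a result about the members. With IL-1a 35 genes were called in all, and 19 with only the groups of the comparison fitted. The summed level with vehicle at 4 mM, 1529 TPM, was 1624 under median-of-ratios scaling and 1706 without the mitochondrially encoded genes.

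Leaving out 1 library at a time gave 2 to 3 members called with EIPA and 0 with IL-1a. Of all tested genes, 5424 to 6152 were then called with EIPA and 27 to 47 with IL-1a, in either direction. For the difference of responses, leaving out 1 library gave 2 to 3 members, where 3137 to 3759 of all tested genes were called in either direction. Between the glutamine levels it gave 4, with Fmod among them. Fmod passed the filter through the 4 mM libraries only, so its call is not counted with those of Bgn, Dcn and Ogn. Of all tested genes, 8764 to 9139 were called there, in either direction. The labels do not say that replicate numbers pair the samples, and not every pair reached r over 0.1: same-numbered libraries deviated together at that level across genes in 4 of 5 pairs for EIPA, 4 of 5 for IL-1a (lowest -0.28) and 2 of 5 for the glutamine levels, and 4, 2 and 4 of 5 libraries correlated best with their own number, a hint from the data and not from the design. With the replicate block the Dcn difference between the responses was called (-1.01, limma adjusted p = 0.028), and no other call of a member changed. Depth is unknown, which limits Fmod at 0.2 mM and the 4 members below 1 TPM.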
